A study of Macaca mulatta with 11 samples.

Results

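LGR5, a receptor that amplifies WNT signalling, was followed with a set of genes across donor ages in cultured marrow stromal cells of the rhesus monkey. The other genes were the WNT co-receptor LRP6 and genes that restrain the same pathway. The set held 10 named genes: LGR5, the secreted antagonists DKK1, DKK2, DKK3, SFRP1, SFRP4, FRZB and WIF1, the intracellular feedback inhibitor AXIN2 and the co-receptor LRP6. Every probe set whose annotation named one of them was taken, which gave 19 of the 22215 probe sets of the array for 9 of the 10 genes. AXIN2 was not analysed here. The genes had been picked with their log2 intensities over the fetal, infant and adult arrays already known. The spread between cultures of one group was known too. Their differences between age groups, their spread within groups and its ranks are therefore given as descriptions without a test.

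WNT ligands bind Frizzled receptors together with the co-receptors LRP5 and LRP6, which stabilises beta-catenin and switches on target genes. Dickkopf proteins such as DKK1 block LRP5 and LRP6, whereas secreted Frizzled-related proteins and WIF1 bind the ligands themselves. LGR5 binds R-spondins and marks stem cells in several epithelia. In bone, WNT signalling favours the formation of osteoblasts, and DKK1 is a well known inhibitor of it.

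The study compared 11 mesenchymal stem cell cultures grown from bone marrow, each hybridised to 1 array annotated with human genes, to ask how age affects expression. The fetal group held 4 arrays, of which arrays 1 and 2 came from gestation day 120 and arrays 3 and 4 from newborns. The infant group held 4 arrays, from donors of 6, 6, 3 and 5 months, and the adult group held 3, from donors of 7, 7 and 8 years. Marrow of fetal and newborn donors was flushed from long bones and that of infants and adults was aspirated, so collection by flushing cannot be told apart from the fetal group. Cultures of all groups were untreated adherent cells harvested at passage 2. The labels give neither the donors' sex nor whether same-aged donors were different animals, so p-values measure the spread between these cultures.

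All values are log2 of the deposited intensity, and differences are the older minus the younger group. Array medians lay between 164.9 and 169.7 intensity units, and a probe set was called dim when its mean lay below 7.38, the median over all probe sets. Of the marrow stromal markers, ENG, THY1 and CD44 lay above that median, whereas NT5E, which encodes CD73, was dim with a mean of 7.01. PTPRC, the pan-leukocyte marker, had a mean of 7.75, above that median, with 7.14 to 7.93 over all arrays, and CD14, a monocyte marker, was dim. The first principal component held 23.1% of the variance and set adult arrays 1 and 2 and infant arrays 1 and 2, between -20.5 and -16.1, apart from the other 7 arrays, between 6.70 and 19.5. Where a difference of LGR5 or an antagonist given here moved by over 1.5 times without them, that value is given too. Adult array 3 differed from every other array in 2 sex-linked genes: XIST, the X-inactivation RNA, read 11.23 there against 7.27 to 8.40 elsewhere, and RPS4Y1, encoded on the Y chromosome, read 7.81 there against 11.3 to 12.2 elsewhere.

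LGR5 separated the cultures of the adult group more widely than any other probe set on the array. Its brighter probe set, 213880_at, read 8.89, 9.43, 9.11 and 9.30 in fetal arrays 1 to 4. It read 8.71, 8.87, 9.28 and 10.65 in infant arrays 1 to 4. It read 6.84, 7.00 and 11.72 in adult arrays 1 to 3. The fetal cultures were closer together than the infants or the adults, infant array 4 stood above the other infants, and the adults held both the highest reading of the series and its lowest readings. A lower reading in such bulk RNA cannot tell fewer LGR5-expressing cells from less LGR5 RNA per cell.

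**Figure D1:**
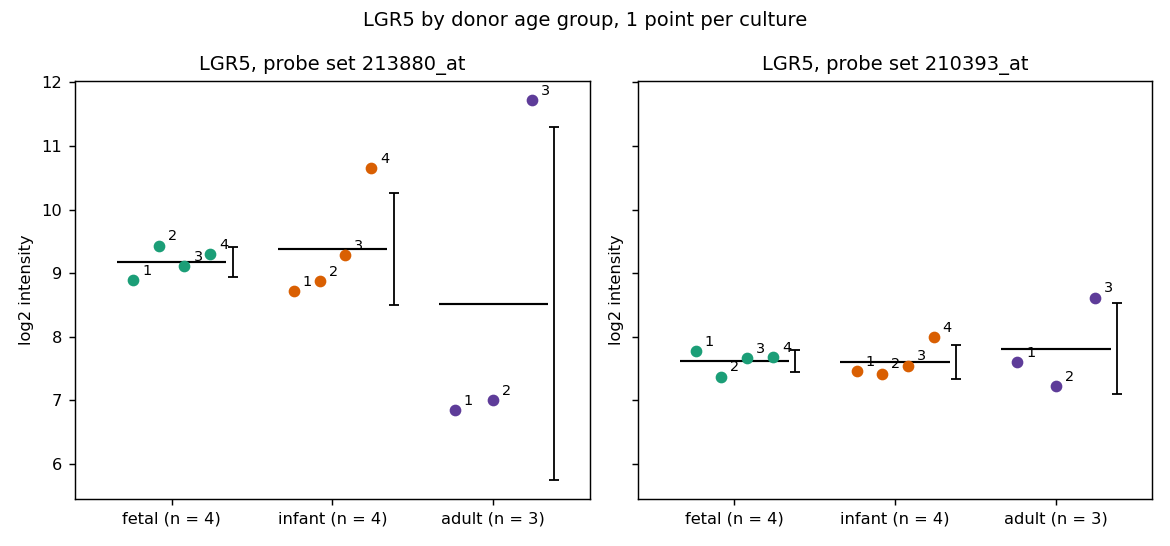
Log2 intensity of the 2 LGR5 probe sets in the fetal, infant and adult groups, with 1 numbered point per culture, a line at the group mean and a bar for the SD. In probe set 213880_at the adult points lie at 6.84, 7.00 and 11.72, outside the fetal range of 8.89 to 9.43 on both sides, and in 210393_at adult array 3 is highest at 8.61.

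The adult range of LGR5 was 4.88 on the log2 scale, a 29.4-fold spread, and ranked 1 among 22215 adult ranges. Adult array 3 exceeded the mean of adult arrays 1 and 2 by 4.80, or 27.9-fold. The infant range was 1.94 and ranked 20, whereas the fetal range was 0.54 and ranked 2274. Pooled over the 3 groups, the SD within a group was 1.49, second to FOLR1 with 1.54. These ranks describe a spread that was known when LGR5 was picked.

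The group means of LGR5 differed by less than the infant or the adult cultures did among themselves. They were 9.18 ± 0.23 in fetal (SD, n = 4), 9.38 ± 0.88 in infant (SD, n = 4) and 8.52 ± 2.77 in adult arrays (SD, n = 3). In order of level the infant mean came first, the fetal mean next and the adult mean last, and no neighbours in that order differed beyond their spread. The adult mean was 0.66 below the fetal mean (SE 0.87) and 0.86 below the infant mean, and the infant mean was 0.20 above the fetal mean (SE 0.80). Without infant array 4 the infant minus fetal difference was -0.23, and without infant arrays 1 and 2 it was 0.78. Single adult arrays decided the sign: the adult minus fetal difference was -2.26 without adult array 3, 0.18 without adult array 1, 0.10 without adult array 2, and 2.54 with adult array 3 as the only adult. The adult minus infant difference was -2.46 without adult array 3, -0.02 without adult array 1, -0.10 without adult array 2 and -0.43 without infant array 4. It was -1.87 within the adult and infant arrays 1 and 2, and 1.76 when those 4 arrays were left out.

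The other LGR5 probe set, 210393_at, also had adult array 3 as the highest adult, at a smaller size. It read 7.77, 7.37, 7.66 and 7.68 in fetal arrays, 7.46, 7.42, 7.54 and 7.99 in infant arrays, and 7.60, 7.22 and 8.61 in adult arrays. Adult array 3 and infant array 4 were again the highest, adult array 1 lay within the fetal and infant values, and adult array 2 was the lowest of the series. The adult mean lay 0.19 above the fetal mean, -0.21 without adult array 3 and 0.99 without adult arrays 1 and 2. Over 11 arrays the LGR5 probe sets correlated at r = 0.78, a description of values that share the same libraries.

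Some marker genes of other cell types moved with LGR5 or against it among the adult cultures. Of 8 chondrocyte markers 7 were measured and 4 lay above the median level, and their summed intensity was 1927 to 7169.5 in fetal, 3054 to 4462 in infant, and 1447, 1320 and 7826 in adult arrays 1 to 3. COL2A1, the collagen that defines cartilage, was dim on average, and MATN3 was dim too. COMP, a cartilage matrix protein, read 10.19 in adult array 3, against 7.47 and 7.25 in adult arrays 1 and 2, and ACAN, the core protein of aggrecan, read 12.51 there against 8.96 and 8.52. SOX9, a chondrocyte transcription factor, and COL9A1 hardly moved, with adult array 3 at 0.04 and 0.02 above the mean of adult arrays 1 and 2, so ACAN and COMP carried the sum. This ACAN probe set was highest in fetal array 4, at 12.59, where LGR5 read 9.30, whereas the other 2 ACAN probe sets were highest in adult array 3. Of 7 plasma and B cell markers 6 were measured, 5 above the median level and JCHAIN dim, with summed intensities of 1316 to 1417 in fetal, 1149 to 1428 in infant, and 8763, 11463 and 1677 in adult arrays 1 to 3. The immunoglobulin light chains carried this sum: IGLC1 read 12.8, 13.2 and 9.10 and IGKC 9.36, 9.90 and 7.60 in adult arrays 1 to 3. MZB1 and CD79A went the other way, with adult array 3 at 0.43 and 0.19 above the mean of adult arrays 1 and 2, and IGHM differed by -0.20. Among leukocyte and macrophage markers the dim LYZ, TYROBP and CD14 differed in the same way by -0.51, -0.56 and -0.62. AIF1 and ITGAM differed by -0.28 and -0.17, and PTPRC and CSF1R by 0.16 and 0.03. Of the endothelial markers PECAM1, CDH5 and KDR differed by -0.45, -0.29 and -0.24, and TEK and VWF by 0.44 and 0.03. The part of these markers, of the sex-linked genes or of the first component in the LGR5 values was not tested.

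Among the Dickkopf genes, DKK1 was lower in each adult culture than in each fetal culture. It read 9.46, 10.05, 9.68 and 8.84 in fetal arrays and 7.84, 8.54, 9.41 and 9.81 in infant arrays. It read 8.36, 8.36 and 8.59 in adult arrays. The adults were close to one another, the infants ran from below the adults to within the fetal range, and no adult reached the lowest fetal value. Means were 9.51 ± 0.51 in fetal (SD, n = 4), 8.90 ± 0.88 in infant (SD, n = 4) and 8.44 ± 0.13 in adult arrays (SD, n = 3), and neighbours in that order overlapped. The adult mean was 1.07 below the fetal mean on the log2 scale (SE 0.37), and -1.32 to -0.89 over the alternatives run. The adult mean was 0.46 below the infant mean. That difference was 0.17 within adult and infant arrays 1 and 2, -1.02 without them, and -0.82, -0.29 and -0.16 without infant array 1, 3 or 4. The infant mean was 0.61 below the fetal mean, a difference of -0.25 without infant array 1 and 0.10 without infant arrays 1 and 2. The infant range of 1.97 ranked 19 on the array. Summed intensities of 8 markers of dividing cells were 3306, 3312, 3408 and 1871 in fetal arrays 1 to 4. They were 1705.5, 1972.5, 2507 and 1832 in infant arrays and 2041, 2312 and 1909 in adult arrays. CDC20 read 10.14, 10.11, 10.22 and 8.12 in fetal arrays, whereas MKI67 rose from 7.79 in fetal array 1 to 8.15 in fetal array 4. The part of cell division in the DKK1 values was not tested.

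DKK2, another Dickkopf protein that binds LRP6, was dim, at 6.36 to 6.91 in fetal, 6.44 to 6.65 in infant and 6.72 to 7.19 in adult arrays. The adults lay above all infants, by 0.34 in the mean or 0.20 without adult array 2, and overlapped the fetal cultures.

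DKK3, a divergent Dickkopf family member whose place in WNT signalling is less clear, had 5 probe sets, 3 of them above the median level. Probe set 214247_s_at read 8.42, 9.13, 8.92 and 9.25 in fetal, 9.52, 9.52, 9.93 and 9.54 in infant, and 8.99, 8.78 and 9.72 in adult arrays. Each infant lay above each fetal culture, by 0.70 in the mean (SE 0.20), and the adults spanned both groups. Probe set 221127_s_at read 6.85, 7.21, 7.24 and 7.10 in fetal, 8.42, 8.76, 7.49 and 7.49 in infant, and 7.61, 7.53 and 7.59 in adult arrays. Here infants and adults all lay above the fetal cultures, by 0.94 and 0.48 in the mean, and infant arrays 1 and 2 were the highest. Without these arrays the infant minus fetal difference was 0.39. The adult minus infant difference was -0.46, and 0.10 without adult and infant arrays 1 and 2. Probe set 202196_s_at had an infant minus fetal difference of 0.30 with overlapping groups. The probe sets thus disagreed in part: r over 11 arrays was 0.74 between 214247_s_at and 202196_s_at and 0.49 between 214247_s_at and 221127_s_at, and -0.06 for the second pair once group means were removed.

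The secreted Frizzled-related proteins divided the adult cultures in opposite ways. SFRP1, whose protein binds WNT ligands, read 9.68, 9.77, 9.70 and 10.24 with probe set 202037_s_at in fetal arrays. It read 9.67, 9.68, 10.05 and 10.47 in infant arrays and 9.18, 8.78 and 10.36 in adult arrays. Adult arrays 1 and 2 lay below every fetal and infant culture, whereas adult array 3 lay above every fetal one. The adult minus fetal difference was -0.41, -0.08 without adult array 2, -0.87 without adult array 3 and 0.51 without adult arrays 1 and 2. A second SFRP1 probe set, 202036_s_at, read 8.17, 7.49 and 8.01 in adult arrays, against 8.28 to 8.46 in fetal and 8.28 to 8.80 in infant arrays. There all 3 adults lay below both younger groups, by 0.43 against fetal and 0.53 against infant means. Without adult array 2 these differences were -0.23 and -0.33. The values lay below the fetal range in all adults, so the probe sets of SFRP1 disagreed on adult array 3.

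SFRP4, a related WNT-binding protein, ran the other way among the adults. With probe set 204051_s_at it read 7.91, 7.73, 7.70 and 7.68 in fetal, 7.88, 8.63, 7.86 and 7.63 in infant, and 8.97, 8.67 and 7.47 in adult arrays. Adult arrays 1 and 2 were the highest of the series and adult array 3 the lowest. The adult mean was 0.62 above the fetal mean, 0.32 without adult array 1, 1.07 without adult array 3 and -0.28 without adult arrays 1 and 2. The other SFRP4 probe set, 204052_s_at, was dim.

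**Figure D2:**
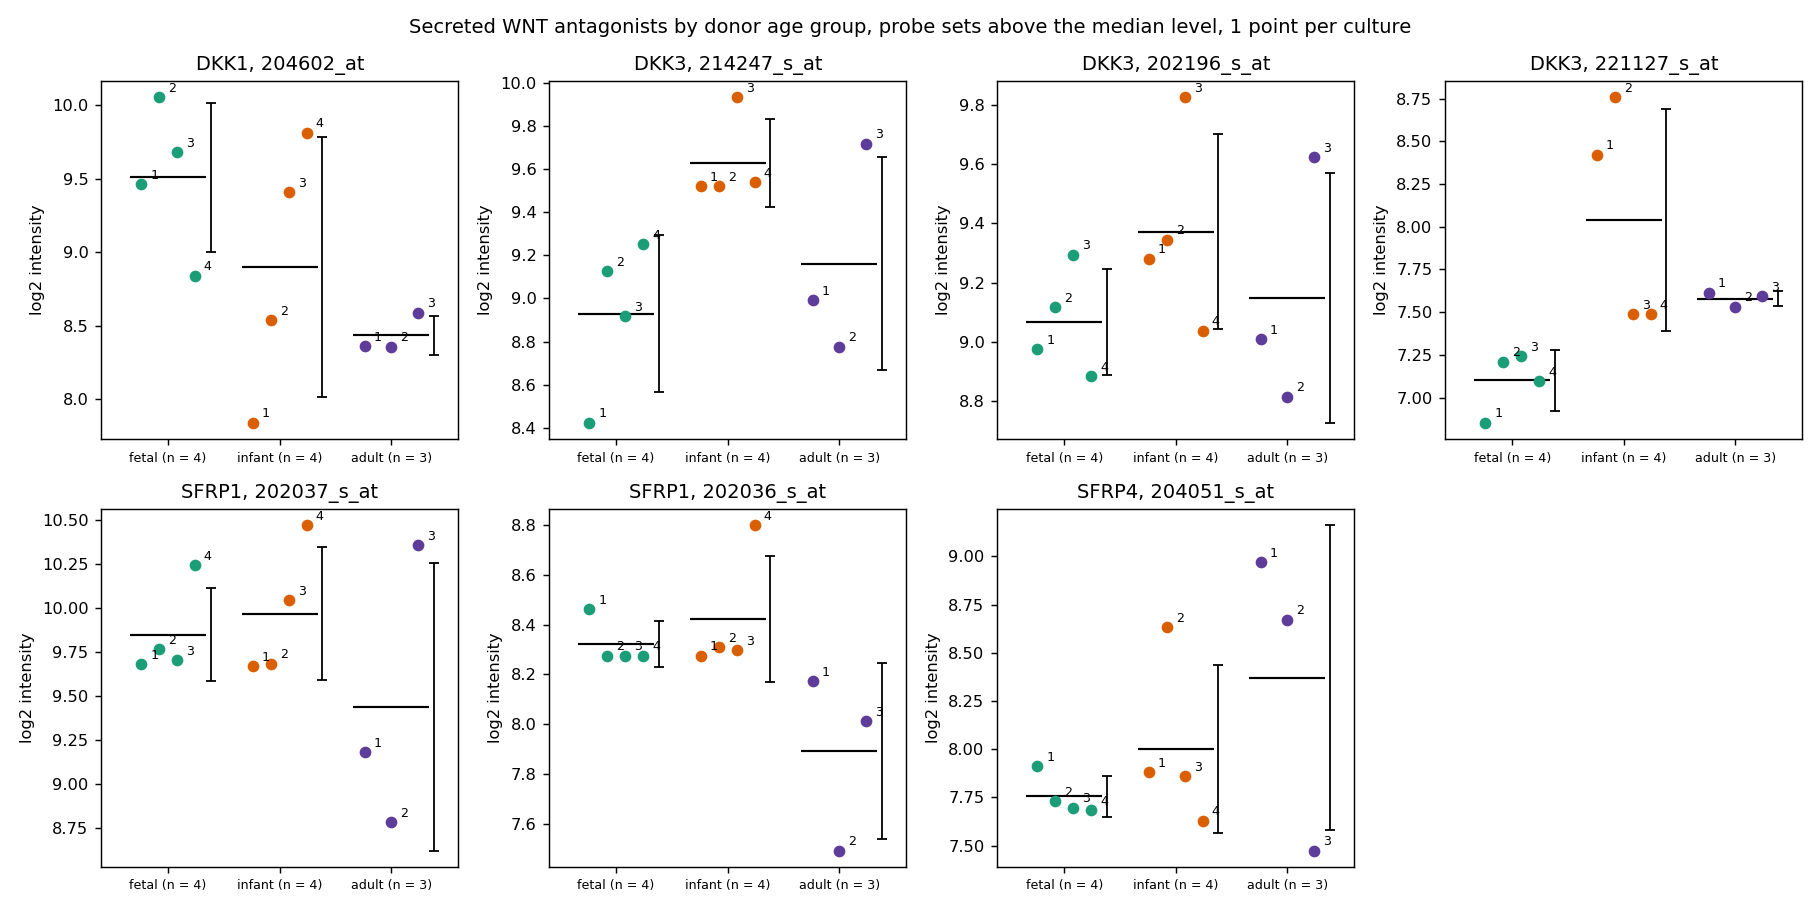
Log2 intensity of DKK1, 3 DKK3, 2 SFRP1 and 1 SFRP4 probe sets above the median level in the fetal, infant and adult groups, with 1 numbered point per culture, a line at the group mean and a bar for the SD. DKK1 lies at 8.36 to 8.59 in adults, below all fetal points, while SFRP1 202037_s_at and SFRP4 204051_s_at each divide adult arrays 1 and 2 from adult array 3.

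The remaining genes gave little signal. FRZB, which encodes another Frizzled-related antagonist, had 2 probe sets and WIF1 had 1, all dim. LRP6 had one dim probe set and one with a mean of 7.38, at the median level. Counting the dim probe sets of DKK2, DKK3, SFRP1 and SFRP4 as well, 9 of the 19 probe sets were dim, with values of 6.36 to 7.64. Their ranges over 11 arrays were 0.32 to 0.83, with a median of 0.47, against a median range of 0.58 over all probe sets. Among the fetal, infant and adult groups, DKK2 was the 1 dim probe set without overlap, adults against infants, where 4.98% of all probe sets did not overlap.

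**Figure D3:**
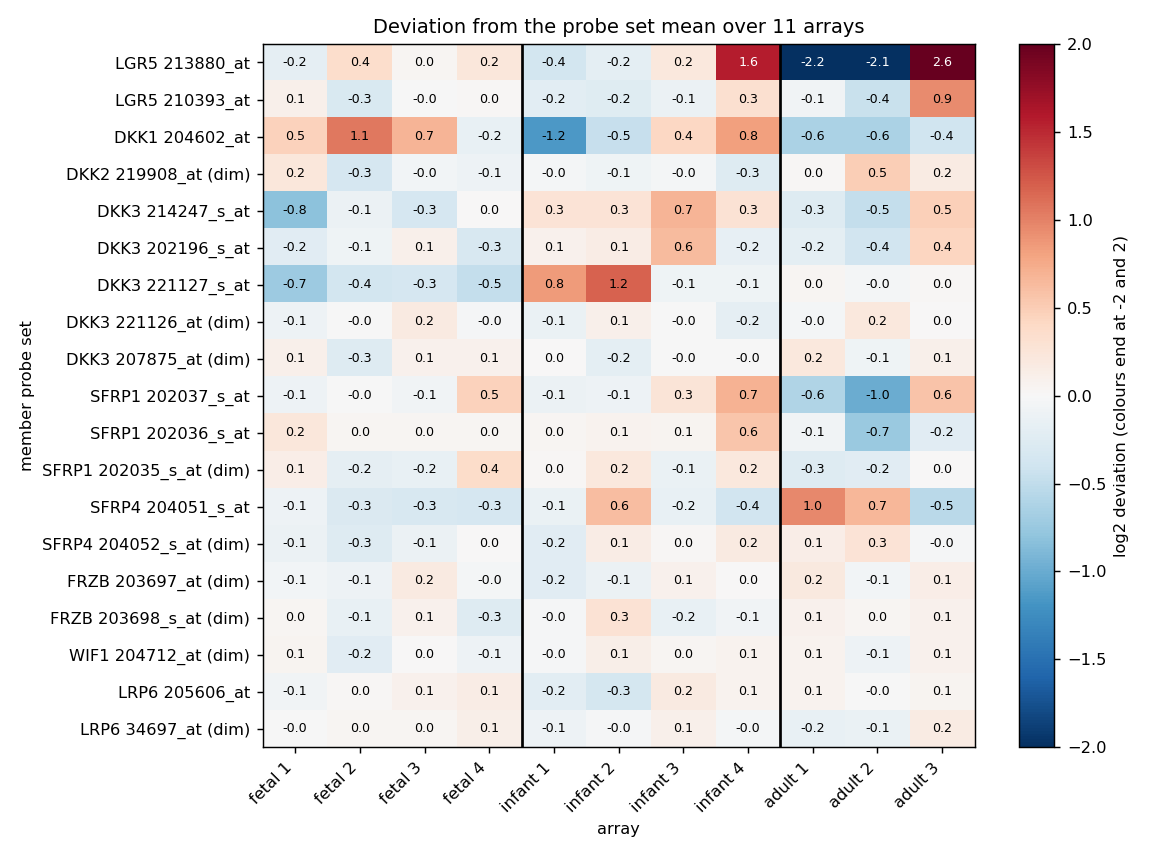
Deviation of each of the 19 probe sets from its own mean over 11 arrays, in log2 units, with arrays across and probe sets down; colours end at -2 and 2 and dim probe sets are marked. LGR5 213880_at has the deepest colours, in the adult columns, and the dim probe sets stay near 0.

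Counted over the table, the age groups separated few of the 19 probe sets. With limma's moderated test at a Benjamini-Hochberg adjusted p under 0.05, 0 of 19 passed between adult and fetal arrays, where 0.131% of all probe sets did. At an unadjusted p under 0.05 there were 2 of 19, against 8.96% of all probe sets, and 3 of 19 had adult and fetal values that did not overlap, against 8.08%. Between adult and infant arrays 0 of 19 passed limma's adjusted test (0.018% of all), 2 passed unadjusted (6.19%) and 2 did not overlap (4.98%). Between infant and fetal arrays 0 of 19 passed limma's adjusted test (0% of all), 2 passed unadjusted (6.87%) and 2 did not overlap (3.34%). Since the genes were picked on these comparisons, nothing is read from these counts. The median difference of the 19 probe sets was 0.08 for adult minus fetal, -0.03 for adult minus infant and 0.08 for infant minus fetal, against 0.01, 0.01 and -0.01 over all probe sets.

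**Figure D4:**
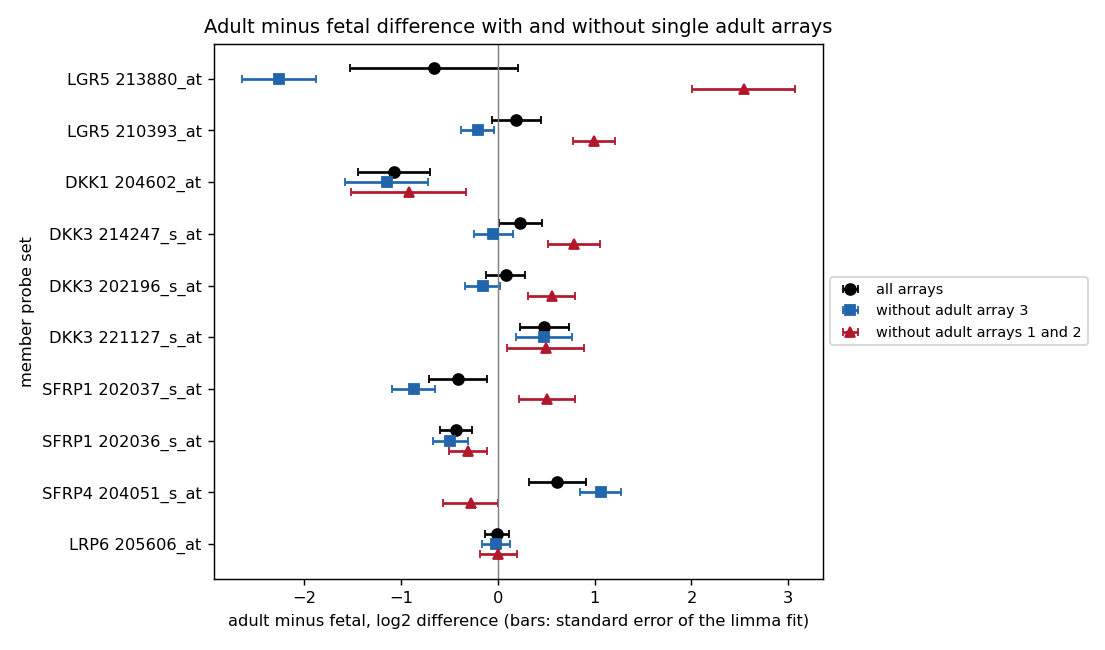
Adult minus fetal log2 difference (x axis, bars for the standard error of the limma fit) of the 10 probe sets above the median level, with all arrays, without adult array 3 and without adult arrays 1 and 2. LGR5 213880_at moves between -2.26 and 2.54, whereas DKK1 stays below 0 in all 3 settings.

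LGR5 213880_at and the brightest probe sets of SFRP1 and SFRP4 ordered the cultures in nearly the same or nearly the opposite way. SFRP1 202036_s_at, also above the median level, had another order, with adult array 3 at 8.01, below every fetal and infant culture. Over 11 arrays LGR5 correlated with SFRP1 202037_s_at at r = 0.90 (rho 0.95) and with SFRP4 204051_s_at at r = -0.84 (rho -0.93). Without adult arrays 3 and 1, the farthest from the LGR5 median, r was 0.94 and -0.75 over 9 arrays. With DKK1 r was 0.38 (rho 0.68), and 0.62 without those arrays. All of these values share the libraries and the first component, with which LGR5 had r = 0.80, SFRP1 0.79, SFRP4 -0.84 and DKK1 0.68, and they are descriptions only.

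**Figure D5:**
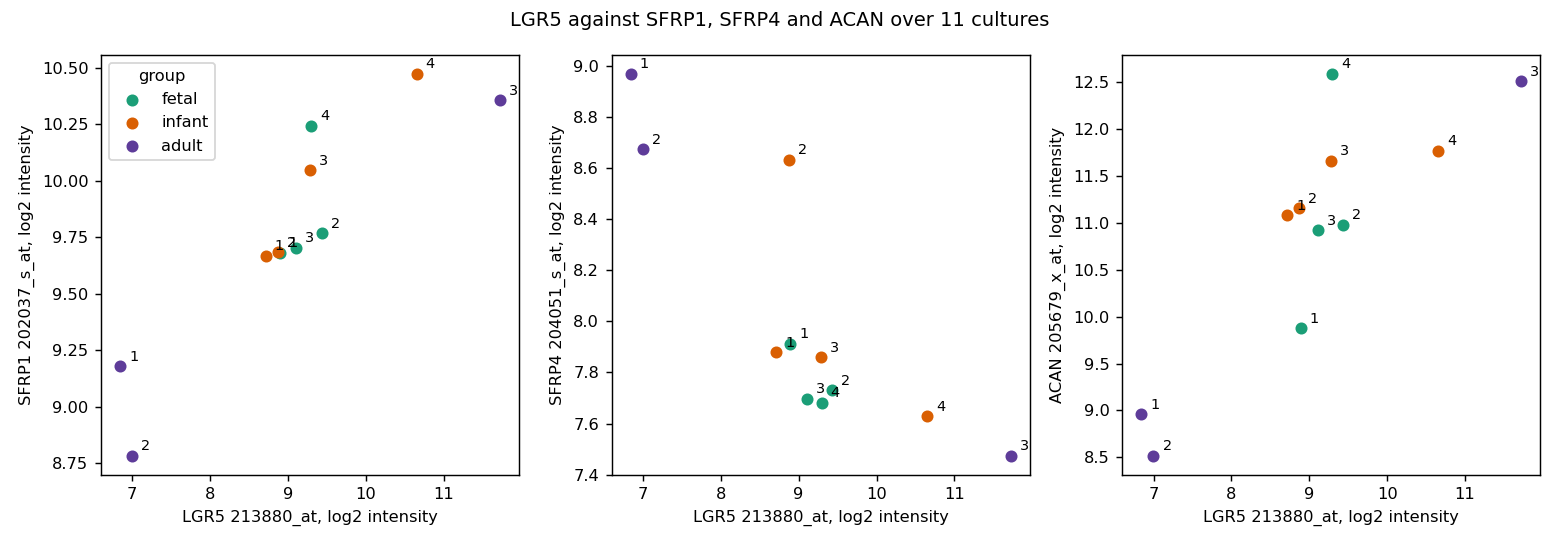
Log2 intensity of SFRP1, SFRP4 and ACAN (y axes) against LGR5 213880_at (x axis), with 1 numbered point per culture coloured by group. SFRP1 202037_s_at follows LGR5 upwards (r = 0.90) and SFRP4 204051_s_at runs downwards (r = -0.84). In the ACAN panel (r = 0.85) fetal array 4 lies high, at 12.59.

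The genes whose pattern was most like that of LGR5 were sought by Pearson's r over the 11 arrays. The search covered 9746 probe sets of other genes above the median level, each with 1 gene symbol. NPDC1 (0.94), SERPINE2 (0.92), ABCF3 (0.92) and PXDN (0.91) came highest, and PMPCB (-0.93) and TMEM186 (-0.92) lowest. SERPINE2 encodes a secreted serine protease inhibitor and PXDN a peroxidase of the extracellular matrix. Without adult arrays 3 and 1 these values were 0.83, 0.78, 0.89 and 0.83 for the first 4, and -0.89 and -0.84 for the last. By Spearman's rho 1 of the 4 highest was shared, and by deviations from group means 2 of the 4.

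DKK1, whose group means spanned the widest range among the antagonists, was most like DNMT1 (0.91), the maintenance DNA methyltransferase, LRRC32 (0.90), SEMA3F (0.90) and SMOX (0.89). PSAT1 (-0.92), an enzyme of serine synthesis, and PCDHGB5 (-0.90) ran most nearly opposite. By Spearman's rho 2 of the 4 highest were shared, and by deviations from group means 0 of the 4.

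The fetal group could be divided by stage, a division that was not itself used to choose the genes. The spread among the fetal arrays was known, however, and the difference between stages is part of it. The values below are therefore descriptions too, and nothing is read from the counts. Between newborn and gestation day 120 cultures, with 2 arrays each, 0 of 19 probe sets passed limma's adjusted test, where 0% of all did, and 0 passed at an unadjusted p under 0.05, against 1.81% of all. Newborn and gestation day 120 values did not overlap for 4 of 19, against 28.8% of all. LGR5 averaged 9.20 in newborn and 9.16 in gestation day 120 cultures, a difference of 0.04 (SE 1.18, limma adjusted p = 1). DKK1 averaged 9.26 in newborn and 9.76 in gestation day 120 cultures, a difference of -0.50 (SE 0.49, limma adjusted p = 1). The SE of LGR5 includes the adult spread, and was 0.39 in the fit without adult and infant arrays 1 and 2. The differences of the 19 probe sets, 14 higher and 5 lower, had a median of 0.10, against -0.01 over all probe sets. Of all probe sets 48.5% were higher. Several of the 19 belong to the same gene and many are dim, so nothing is read from this count either.

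The rest of the WNT pathway was followed with a list of 108 other genes, of which 80 were measured by a probe set with 1 gene symbol. This list was made with earlier results of these data known. Its counts, shares and p-values, here and in the paragraphs that follow, are therefore given as descriptions. Between adult and fetal arrays 0 of 80 rose and 1 fell by limma's adjusted test, where 0.184% of all genes passed, 0.092% higher and 0.092% lower. At an unadjusted p under 0.05, 3 were higher and 9 lower, or 15% of the list against 9.92% of all genes. The gene that fell was WNT5A, a ligand best known for signalling without beta-catenin. It read 7.78, 7.97 and 7.76 in adult arrays, against 8.86, 9.55, 8.83 and 9.77 in fetal arrays, and the infants lay at 8.27 to 9.23, overlapping the fetal arrays. All adults lay below all fetal and infant cultures, and the adult minus fetal difference was -1.42 (SE 0.25, limma adjusted p = 0.0466). Its adjusted p rose above the threshold in 11 alternatives, each fit without fetal array 1, 2 or 3 or without adult array 1 or 2 among them, at differences of -1.56 to -1.25, and its dim second probe set differed by -0.53 (limma adjusted p = 0.275).

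Next to WNT5A came TPBG, a membrane inhibitor of WNT signalling, with an adult minus fetal difference of -0.82 (limma adjusted p = 0.0614). CD44, a WNT target and hyaluronan receptor, followed with -0.55 (limma adjusted p = 0.132). This was the brightest of 8 CD44 probe sets, and the others differed by -0.34 to 0.06. IGFBP4, FZD1 and WNT4 had the smallest p of the genes higher in adults, with limma adjusted p of 0.289, 0.311 and 0.349.

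In the receptor list, 15 of 17 genes were measured, with 0 called, 1 higher and 1 lower at an unadjusted p under 0.05 between adult and fetal arrays. Of the 19 WNT ligands 13 were measured, with WNT5A the 1 called. Of 18 target genes 13 were measured, 0 were called and 4 were lower at an unadjusted p, with a median of -0.09 against 0.00034 over all genes. The destruction complex and cytoplasmic list had 17 of 18 measured and 0 called, and the nuclear factors 12 of 15 measured and 0 called. Of the other secreted antagonists 6 of 9 were measured and 0 called, of the membrane inhibitors 3 of 6 and 0 called, and of the WNT secretion genes 1 of 2 and 0 called.

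Between adult and infant arrays 0 of 80 genes passed limma's adjusted test, where 0.0334% of all genes did, and 8 passed unadjusted, 4 in each direction, or 10% against 6.58% of all genes. WNT5A (-0.98), TPBG (-0.60) and CD44 (-0.34) had the smallest p among lower genes, and the other CD44 probe sets differed by -0.30 to 0.13. The smallest p among higher genes belonged to CTNNB1 (0.41), which encodes beta-catenin, WNT1 (0.25) and KREMEN2 (0.27), a DKK1 receptor. Between infant and fetal arrays 0 of 80 passed limma's adjusted test, where 0% did, and 4 passed unadjusted, or 5% against 7.6% of all genes. FZD2, a Frizzled receptor, lay at 7.03 to 7.54 in all infants against 7.94 to 8.87 in fetal arrays, a difference of -0.99 (SE 0.18, limma adjusted p = 0.197). BAMBI and TWIST1 followed among lower genes, and SOX4, FZD4 and TLE4 came first among higher ones. Between newborn and gestation day 120 arrays 0 of 80 passed limma's adjusted test, where 0% did, and 2 passed unadjusted (2.5% against 2.07% of all genes), FZD1 and APC, both higher in newborns. JAG1 was next among higher genes, and WNT8B, CD44 and ASCL2 came first among lower ones.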

How the data were processed

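Per the submitters' processing notes, the authors made 1 intensity per probe set and array with RMA (version not given), which corrects background, normalises between arrays and summarises probes. The deposited intensity is linear, and log2 was taken here. RMA removes differences in overall brightness, and no detection call was used. Probes annotated with human genes were hybridised with monkey RNA, so levels of different probe sets were not compared beyond dim and bright. Limma 3.58.1 in R 4.3.3 (lmFit and eBayes) fitted 1 mean per group over 11 arrays, or 1 per stage for newborns, two-sided, with Benjamini-Hochberg adjustment over 22215 probe sets. The fit was also run on simulated data with independent noise, without the division along the first component or arrays that stand apart. That run therefore cannot show how the fit behaves with them. Of the probe sets, 19065 had 1 gene symbol, 1043 several and 2107 none. WNT genes used the probe set of highest mean.

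The genes and lists were chosen with earlier results of these data known. The text names every probe set of the 10 genes, called genes of the WNT list with the 3 of smallest p per direction and comparison, and the 4 most and 2 least alike genes of LGR5 and DKK1. XIST, RPS4Y1 and FOLR1 were named after their values were seen. Replicate numbers come from the titles. For adult and infant arrays 1, 2 and 3, deviations from the group means had correlations of 0.145, 0.131 and 0.204 with their namesakes. All lay above 0.1, so these passed the check for pairs, though the first component divides them alike. Every difference given as the main value came from a fit without pairs, and the replicate block was only an alternative. Alternatives were an offset of 50, quantile normalization, a filter on dim probe sets, array weights, a variance trend, 2 groups only, a replicate block and leaving out arrays.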

Additional observations from a re-analysis of the deposited data

Results flagged for a closer look

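In groups of 4 arrays, 1 array lay far from the other 3 in 10 of 76 groups examined, or 13.2%. Chance gives about 1 in 20 for genes picked without regard to their values. The genes examined here were picked with the spread between cultures known, or named for a small p between groups. That rate therefore cannot be set against this share, and nothing is read from the share. Some of these groups hold exactly tied values, and 58.5% of all probe sets have a tie between arrays. None of these gaps was tested further.

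Among the WNT antagonists, infant array 3 was high in DKK3 214247_s_at at 9.93, with the other infants at 9.52 to 9.54. Fetal array 2 was low in the dim DKK3 207875_at at 6.57, with the other fetal arrays at 6.92 to 6.94, and infant array 2 was low in it at 6.63, with the other infants at 6.82 to 6.84. SFRP1 202037_s_at was high in fetal array 4, at 10.24, with the others at 9.68 to 9.77. SFRP1 202036_s_at was high in fetal array 1, at 8.46, with the others at 8.28, and in infant array 4, at 8.80, with the others at 8.28 to 8.31.

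Among the other WNT genes, fetal array 4 stood above the other fetal arrays in CTNNB1 at 11.7 (others 10.94 to 10.98), in KREMEN2 at 7.93 (others 7.76) and in JAG1, a Notch ligand, at 8.99 (others 7.76 to 7.87). FZD4 was low in infant array 4 at 7.19, with the other infants at 7.60 to 7.65.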

How the results depend on the processing

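The signs and counts moved with the arrays included and with some of the settings. Of 1123 alternative values of the 19 probe sets, 87 had another sign than the value reported, among them the adult differences of LGR5, SFRP1 and SFRP4 given above. Limma's adjusted p passed the threshold in 5 of them: LGR5 without adult array 3 (-2.26 against fetal and -2.46 against infant arrays) and within adult and infant arrays 1 and 2 (-1.87), SFRP4 without adult array 3 (1.07 against fetal arrays) and DKK1 with the block. These genes were chosen on these comparisons, so no call is drawn from them. Between adult and fetal arrays 29 probe sets were called, against 12 with an offset of 50, 120 with array weights, 47 with a variance trend, 16 with 2 groups only, 65 without adult and infant arrays 1 and 2, and 44 without adult arrays 1 and 2, a setting chosen after seeing the data. Leaving out 1 array gave 4 to 153, with 153 without adult array 3, 120 without fetal array 4, 7 and 9 without fetal arrays 1 and 3, and 4 without fetal array 2, adult array 1 or adult array 2. Between adult and infant arrays 4 were called, against 10 with array weights, 2 with 2 groups only, 10 without adult and infant arrays 1 and 2, 34 with those arrays alone (chosen after seeing the data), and 0 to 55 leaving out 1 array, with 55 without adult array 3 and 0 without adult array 1 or infant array 3. Between infant and fetal arrays 0 were called, against 1 with the filter, 1 with array weights, 5 with gestation day 120 as the only fetal stage, and 0 to 21 leaving out 1 array, with 21 without fetal array 4 and 4 without infant array 3. Between newborn and gestation day 120 arrays the count of 0 became 0 to 2, with 2 without fetal array 3.

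Of the other WNT genes 1 was called between adult and fetal arrays, against 2 with array weights and 0 with an offset of 50, quantile normalization, 2 groups only, gestation day 120 as the only fetal stage, without adult and infant arrays 1 and 2, without adult arrays 1 and 2, or with the mean of a gene's probe sets. Leaving out 1 array gave 0 to 3, with 3 without fetal array 4 or adult array 3. Between infant and fetal arrays it gave 0 to 1, with FZD2 called without fetal array 4. The causes were not tested.

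With the replicate block 127 probe sets were called between adult and fetal, 6 between adult and infant and 10 between infant and fetal arrays, and the block changed no call of a named gene of the WNT list of non-members. It brought DKK1 past the threshold between adult and fetal arrays, at a difference of -1.30. Same-numbered deviations correlated at -0.096 to 0.068 for adult and fetal and 0.0077 to 0.275 for infant and fetal arrays. Not all of these lay above 0.1, so those arrays did not pass the check for pairs. The mixed values do not settle whether any samples were paired. Of the same-numbered arrays, 3 of 6 adult and fetal, 3 of 6 adult and infant and 5 of 8 infant and fetal ones correlated best with their own number.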
